A study of Homo sapiens with 2 samples.

Results

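The genes described here are 10 genes of the chromosome 20q11.21 segment, chosen by symbol: HM13, BCL2L1, PDRG1, TM9SF4, PLAGL2, POFUT1, KIF3B, ASXL1, COMMD7 and MAPRE1. The rule is a list of symbols with no threshold on a measured value. The list was chosen with earlier results of these data known. It does not take every gene of the segment, and all 10 were found among the 33592 gene symbols of the data. Single-cell RNA was measured in H1 (WA01), an established line of human embryonic stem cells, in a wild-type (WT) library and in a library of cells carrying a homozygous knockout (KO) of the zinc finger factor gene ZNF263, made with Cas9. Each genotype has 1 library, the KO label carries the tag 1-10 without saying what it means, and the labels do not say whether the KO cells are 1 clone. The unit is the unique molecular identifier (UMI), which counts captured molecules of polyadenylated RNA.

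The 20q11.21 segment is a recurrent site of copy number gain in cultured human pluripotent stem cells, and the gain is usually traced to a survival advantage given by BCL2L1. The protein made from it, BCL-XL, holds back the mitochondrial route of apoptosis, which dissociated human pluripotent stem cells enter readily. The other genes of the segment serve unrelated tasks in chromatin, transcription, protein processing, membrane traffic and the microtubule cytoskeleton, and RNA levels alone do not measure copy number.

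In the order of their starts on chromosome 20 (GRCh38.p14) the genes run from HM13 at chr20:31514442-31569543 to MAPRE1 at chr20:32819777-32850405. The closest pair is PLAGL2 on the minus strand and POFUT1 on the plus strand, which start head to head with 136 bases between them. RefSeq promoter sequences were found for 9 of the 10 genes. Stretches upstream of the start and outside annotated exons are shown for the gene with the lowest ratio (ASXL1), the survival gene (BCL2L1), the gene with the ratio nearest to 1 in cells (MAPRE1) and the shared interval of PLAGL2 and POFUT1. Capitals mark GGGCGG, the core of the GC box bound by SP-family factors, on either strand (CCGCCC on the strand shown), and motifs that touch or overlap are run together.

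BCL2L1, chr20:31723990-31724213, minus strand: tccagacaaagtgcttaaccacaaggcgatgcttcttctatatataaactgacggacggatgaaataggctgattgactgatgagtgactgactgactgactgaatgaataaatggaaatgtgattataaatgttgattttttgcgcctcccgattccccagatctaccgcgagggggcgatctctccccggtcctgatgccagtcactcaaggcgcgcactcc
ASXL1, chr20:32358081-32358329, plus strand: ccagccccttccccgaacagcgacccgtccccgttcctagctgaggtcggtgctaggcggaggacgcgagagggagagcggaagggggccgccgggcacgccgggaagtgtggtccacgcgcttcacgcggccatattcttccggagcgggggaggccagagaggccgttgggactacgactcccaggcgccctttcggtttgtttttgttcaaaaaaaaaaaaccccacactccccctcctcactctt
MAPRE1, chr20:32819704-32819776, plus strand: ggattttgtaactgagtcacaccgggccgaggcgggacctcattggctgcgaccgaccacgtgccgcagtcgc
PLAGL2 to POFUT1, chr20:32207792-32207879, plus strand: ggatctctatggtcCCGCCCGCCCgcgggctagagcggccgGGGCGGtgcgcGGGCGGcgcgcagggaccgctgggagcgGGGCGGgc

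The stretches shown for BCL2L1, ASXL1 and MAPRE1 have no GGGCGG, and the interval between PLAGL2 and POFUT1 has 5 in 88 bases. The GC content was 47.8% in the BCL2L1 stretch, 64.4% in the 73 bases before MAPRE1 and 83.0% between PLAGL2 and POFUT1. In the whole 250-base windows upstream of the start, GGGCGG was found for 6 of 9 genes (66.7%), all but BCL2L1, TM9SF4 and ASXL1. The window of MAPRE1 ends at a start 177 bases inside the gene, so part of it is not upstream of the gene. The motif was found for 42.2% of 27305 genes in the table and for 69.0% of the 4556 genes whose mean level in the cells was 20 CPM or more (CPM, the UMIs of a gene scaled to a common total). The letters GGGAGGA, also searched on both strands, were found for COMMD7 alone of the 9 (11.1%) and for 17.9% of those 4556 genes. Neither share stands far from that of the expressed genes, and a match of letters is not a binding site.

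Cells were barcodes of 1000 UMIs or more, with 500 genes or more and no more than 20% mitochondrial UMIs. These were 2935 WT and 2286 KO cells with medians of 1328 and 1289.5 UMIs. A separate set of shallow barcodes, with 250 to 999 UMIs, held 56837 WT and 50551 KO barcodes and more UMIs in sum, 23784553 and 21086560 against 4650391 and 3567881 in the cells. Both sets come from the same 2 libraries and are not replicates. ZNF263 had 83 UMIs in the WT cells and 27 in the KO cells, or 17.8 and 7.57 CPM, and since the labels do not give the deleted part, its remaining UMIs do not check the knockout. All 10 pluripotent markers were detected in both libraries, with summed levels of 3170 CPM in WT and 3640 CPM in KO. Most of that difference was L1TD1, at 1437 CPM in WT and 1871 CPM in KO. Of the 10, 5 were at least 1.2-fold higher in KO, against 11.5% of all genes of at least 10 CPM. SOX2, LIN28A, LIN28B, SALL4 and ZFP42 were lower in the KO cells. The summed levels of the neuroectoderm list, of which all 7 genes were detected in both libraries, were 188 CPM in WT and 33.4 CPM in KO, those of the primitive streak list 36.3 and 13.5 CPM, with 1 of 5 genes at 0 in WT, and those of the endoderm list 3.23 and 2.52 CPM. The mesenchymal list had 64.3 and 59.7 CPM, with DCN at 0 in both libraries, COL3A1 at 24 WT and 0 KO UMIs, COL1A1 at 63 and 85 and COL1A2 at 185 and 118, and the amnion and trophoblast list had 10.1 and 7.29 CPM, with ISL1 at 0 in both. The part of these differences in the values below was not tested. Of the kept barcodes, 20 were kept in both libraries. Doublets were not removed.

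No test was made between the genotypes, since 1 library of each gives no replicates, and differences between clones, cultures and libraries cannot be told apart from that of genotype. Intervals are at 95%. For a level, a ratio or a share of cells they hold counting error alone, and for a median the spread between genes.

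All 10 genes were lower in the KO cells than in the WT cells, as were 65.2% of all genes of at least 5 CPM. The amounts for the 10 genes ran from 2.69-fold for ASXL1 to 1.02-fold for MAPRE1. Their summed level was 481 CPM (2239 UMIs, interval 462 to 502) in WT cells and 386 CPM (1376 UMIs, interval 366 to 407) in KO cells, 1.25-fold lower in KO (interval 1.17 to 1.34). In the shallow barcodes the sum was 487 CPM (11594 UMIs) in WT and 410 CPM (8645 UMIs) in KO, 1.19-fold lower (interval 1.16 to 1.22). There 8 of the 10 were lower, against 68.8% of all genes of at least 5 CPM. In both sets the WT and KO intervals of the sum were apart. HM13 and MAPRE1 held 25.9% and 21.7% of the genes' UMIs in WT cells, so the sum follows these genes most.

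Most genes of the data were also lower in KO, and the 10 genes have to be read against that. On the log2 scale (KO over WT) the median ratio was −0.32 for the 10 genes (interval −0.80 to −0.14) and −0.14 for the 10129 genes whose mean reached 5 CPM, as that of each of the 10 did. Restricted to means of 20 CPM or more, it was −0.23 for 8 of the genes and −0.12 for 5710 genes, of which 65.7% lay below 0. In the shallow barcodes the medians were −0.30 (interval −0.89 to 0.08) for the 10 genes against −0.15 at 5 CPM, and −0.29 for 9 of them against −0.12 at 20 CPM. The values were below the 20 CPM median of all genes for 9 of the 10 genes in cells and for 8 of 10 in shallow barcodes. With ratios taken relative to that median, the summed log2 ratio of −0.32 became −0.20 in cells, and that of −0.25 in shallow barcodes became −0.13.

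In cells 5 of the 10 genes (ASXL1, POFUT1, BCL2L1, TM9SF4 and PDRG1) were at least 1.2-fold lower in KO, where 36.1% of all genes of at least 5 CPM were, and 3 (ASXL1, POFUT1 and BCL2L1) were at least 1.5-fold lower, where 13.0% were. None of the 10 was at least 1.2-fold higher, against 13.2% of all genes of at least 5 CPM. Of all 12 genes of at least 20 CPM from HM13 to MAPRE1, 1 was, the unlisted DNMT3B, against 9.81% of all genes. The absence of a higher gene thus depends on which genes were listed. A mean of 20 CPM or more was reached by 8 of the 10, without TM9SF4 and POFUT1, and of these 3 were at least 1.2-fold lower against 29.7% of all genes and 2 at least 1.5-fold lower against 6.51%, while 0 of the 8 were 1.2-fold higher against 9.81%. Among shallow barcodes 6 of 10 were at least 1.2-fold lower against 35.2% of genes of at least 5 CPM, and ASXL1 and POFUT1 were the 2 at least 1.5-fold lower against 10.1%, with 0 of 10 at least 1.2-fold higher against 10.1%. At 20 CPM there, 5 of 9 were 1.2-fold lower against 28.3% and 0 of 9 higher against 8.38%. At 1.2-fold the counts are small and the backgrounds large. A single gene, ASXL1, lay past 1.5-fold in both sets at a mean of at least 20 CPM, where the background was 6.51% in cells and 5.57% in shallow barcodes.

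**Figure D1:**
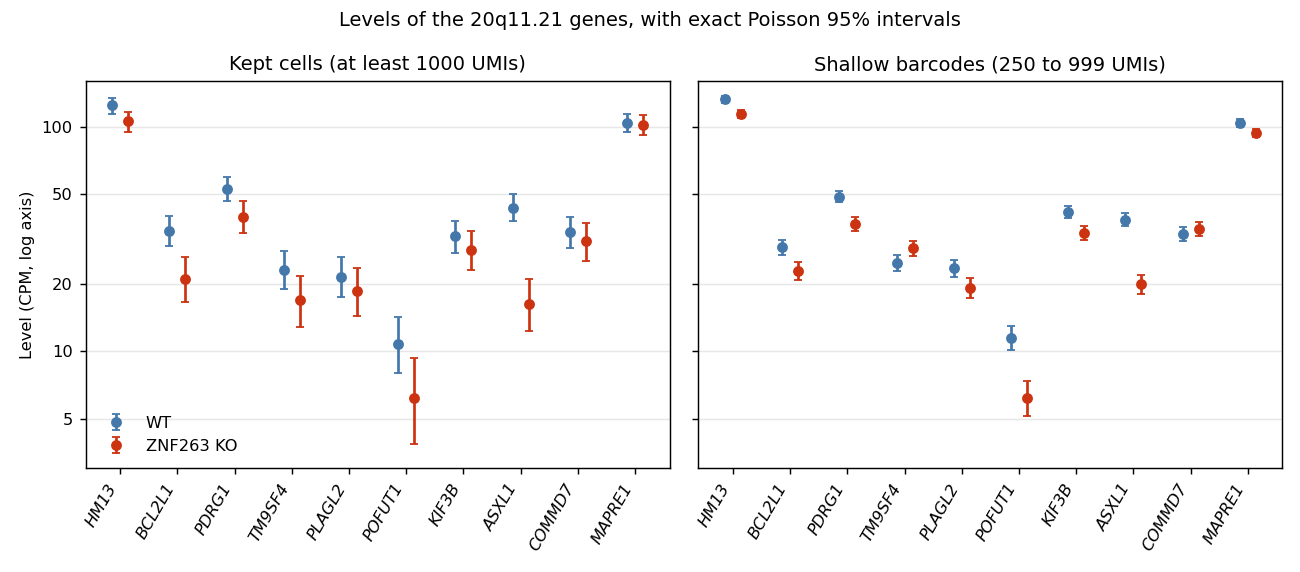
Level of each of the 10 genes in the WT library (blue) and the ZNF263 KO library (red), in CPM on a log axis, in kept cells (left) and in shallow barcodes (right), with genes in chromosome order. Points are sums over 1 library and bars are exact Poisson 95% intervals. The WT and KO intervals of ASXL1 are apart in both panels, and those of MAPRE1 overlap in the left panel.

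ASXL1, a chromatin protein that partners the deubiquitinase BAP1 in removing ubiquitin from histone H2A, had the lowest ratio of the 10 in cells. It had 203 UMIs in WT cells (43.7 CPM, interval 37.9 to 50.1) and 58 in KO cells (16.3 CPM, interval 12.3 to 21.0). The level was 2.69-fold lower in KO (interval 2.0 to 3.66), and 0.368% of the genes of at least 20 CPM had a lower ratio. Shallow barcodes held 917 UMIs in WT (38.6 CPM) and 420 in KO (19.9 CPM), 1.94-fold lower (interval 1.72 to 2.18). The gap was thus wider in cells, and the log2 ratio of the shallow barcodes exceeded that of the cells by 0.47 (interval 0.02 to 0.93).

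PLAGL2, a zinc finger transcription factor of the PLAG family, had 100 UMIs in WT cells (21.5 CPM) and 66 in KO cells (18.5 CPM), a log2 ratio of −0.22 (interval −0.69 to 0.25). The shallow barcodes gave 556 UMIs in WT (23.4 CPM) and 403 in KO (19.1 CPM), a log2 ratio of −0.29 (interval −0.48 to −0.10). The lower KO level was outside counting error only in the shallow barcodes, where more molecules were counted. That interval holds −0.12, the median of all genes of at least 20 CPM there. POFUT1, which adds O-linked fucose to NOTCH receptors and shares its promoter interval with PLAGL2, had 50 UMIs in WT cells (10.8 CPM) and 22 in KO cells (6.17 CPM), 1.74-fold lower in KO (interval 1.04 to 3.02). From shallow barcodes came 272 UMIs in WT (11.4 CPM) and 130 in KO (6.17 CPM), 1.85-fold lower (interval 1.5 to 2.30). The neighbours printed above with a common GC-rich interval therefore had unlike ratios in the shallow barcodes, where their intervals, −0.48 to −0.10 for PLAGL2 and −1.20 to −0.58 for POFUT1, were apart.

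BCL2L1, the anti-apoptotic gene of the segment, had 160 UMIs in WT cells (34.4 CPM, interval 29.3 to 40.2) and 75 in KO cells (21.0 CPM, interval 16.5 to 26.3). It was 1.64-fold lower in the KO cells (interval 1.24 to 2.18). The shallow barcodes held 690 UMIs in WT (29 CPM) and 481 in KO (22.8 CPM), 1.27-fold lower (interval 1.13 to 1.43). KO was below WT outside counting error in both sets, and the difference between the log2 ratios of the sets, 0.36, had an interval of −0.07 to 0.79 that holds 0. Its promoter stretch above is the one of lowest GC content shown.

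HM13, the signal peptide peptidase that cuts leftover signal peptides in the membrane of the endoplasmic reticulum, had 579 UMIs in WT cells (124.5 CPM) and 377 in KO cells (105.7 CPM). The log2 ratio was −0.24 in cells (interval −0.43 to −0.05) and −0.22 in shallow barcodes (interval −0.30 to −0.14), from 3155 WT and 2404 KO UMIs. The values of both sets thus lay close together, 0.12 and 0.10 below the median of all genes. TM9SF4, a nonaspanin of endosomal and Golgi membranes, was the gene whose ratio differed most between the sets. It had 107 UMIs in WT cells (23 CPM) and 60 in KO cells (16.8 CPM), a log2 ratio of −0.45 (interval −0.93 to 0.02), but 589 in WT shallow barcodes (24.8 CPM) and 605 in KO shallow barcodes (28.7 CPM), a log2 ratio of 0.21 (interval 0.05 to 0.38). The difference of 0.66 (interval 0.18 to 1.15) lay mostly in the KO library, where the level in shallow barcodes exceeded that in cells by 0.77 on the log2 scale (interval 0.39 to 1.18), against 0.11 (interval −0.19 to 0.42) in WT. Its direction therefore depends on which barcodes are counted. COMMD7, a subunit of the Commander complex of endosomal recycling, had 158 UMIs in WT cells (34.0 CPM) and 110 in KO cells (30.8 CPM), and 792 and 740 in shallow barcodes (33.3 and 35.1 CPM). Its log2 ratios were −0.14 in cells (interval −0.50 to 0.22) and 0.08 in shallow barcodes (interval −0.07 to 0.22), and both intervals hold 0.

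KIF3B, a motor subunit of the kinesin-2 that carries cargo in the cilium, had 151 UMIs in WT cells (32.5 CPM) and 101 in KO cells (28.3 CPM), a log2 ratio of −0.20 (interval −0.58 to 0.18). The shallow barcodes held 995 and 709 UMIs (41.8 and 33.6 CPM), a log2 ratio of −0.32 (interval −0.46 to −0.17). Here too the larger count placed the KO level below WT outside counting error. MAPRE1 encodes EB1, which tracks growing microtubule ends. It had 485 UMIs in WT cells (104.3 CPM, interval 95.2 to 114) and 365 in KO cells (102.3 CPM, interval 92.1 to 113), a log2 ratio of −0.03 (interval −0.23 to 0.17). The shallow barcodes held 2467 and 1976 UMIs (103.7 and 93.7 CPM), a log2 ratio of −0.15 (interval −0.23 to −0.06). MAPRE1 was the gene closest to equal levels in cells, and relative to the median of all genes its log2 ratio there was 0.09, above that of the typical gene. Reads of its 3 pseudogenes, which have 10 WT and 5 KO UMIs of their own in cells, could not be told apart from it.

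PDRG1, a prefoldin-like subunit found with the R2TP chaperone complex, had 246 UMIs in WT cells (52.9 CPM) and 142 in KO cells (39.8 CPM). It was 1.33-fold lower in the KO cells (interval 1.08 to 1.65) and 1.32-fold lower in the shallow barcodes (interval 1.21 to 1.45), where it had 1161 UMIs in WT (48.8 CPM) and 777 in KO (36.8 CPM). Of the 10 genes it had the smallest difference between the sets, 0.0048 on the log2 scale (interval −0.32 to 0.33). HM13, BCL2L1, PDRG1 and POFUT1 overlap other annotated genes, and no more than 3 UMIs in either library were assigned to these in cells. Because the strand used in counting is not given in the sources used here, reads of overlapping genes cannot be told apart.

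**Figure D2:**
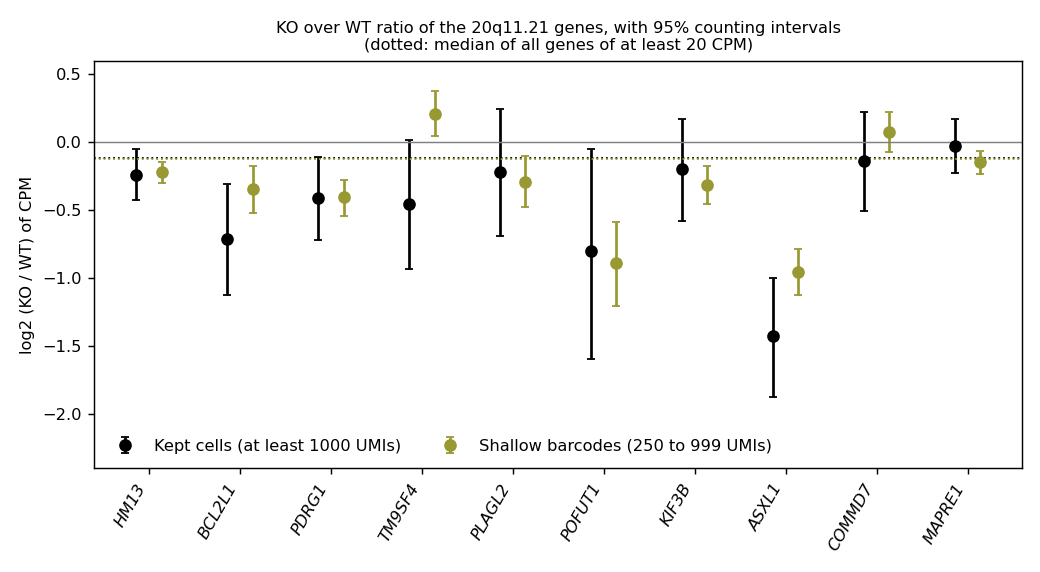
Log2 ratio of KO over WT CPM for each gene, in kept cells (black) and shallow barcodes (olive), with 95% counting intervals and the median of all genes of at least 20 CPM dotted at −0.12. ASXL1 lies below the dotted line with its whole interval in both sets. POFUT1 lies below the line in both sets, but its interval in cells (−1.60 to −0.05) crosses it. TM9SF4 lies on opposite sides of the line.

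The sum of the 10 genes was lower in KO in each range of UMIs per barcode. Barcodes of 10 to 99 UMIs held 497 CPM of the 10 genes in WT and 410 CPM in KO, and those of at least 2000 UMIs held 472 and 393 CPM. Over the 6 ranges the log2 ratio of the sum lay between −0.35 and −0.21, and the WT and KO intervals were apart in each. The sum alone does not tell fewer cells with these RNAs from less RNA per cell. ASXL1 had log2 ratios of −1.48 and −1.31 in the ranges from 1000 to 1999 UMIs and from 2000 UMIs on, and between −1.04 and −0.92 in the 4 ranges below. TM9SF4 had −0.61 and −0.09 in the upper ranges and between −0.01 and 0.29 in the lower ones. Both genes had lower ratios above 1000 UMIs than below, from fewer UMIs of each.

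**Figure D3:**
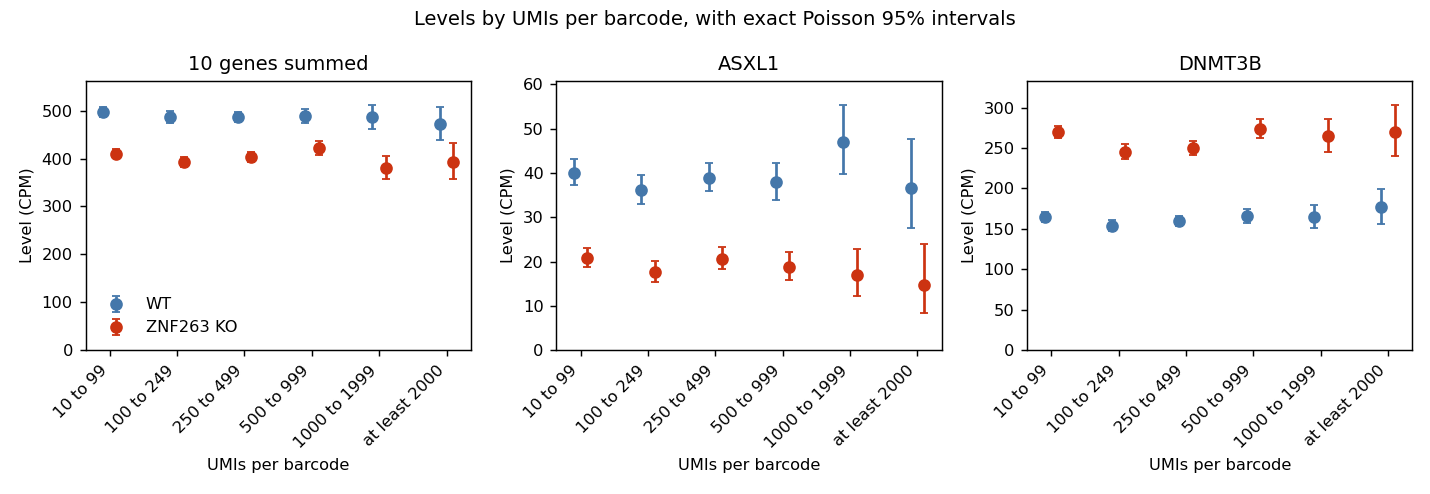
Level in CPM of the 10 genes summed (left), of ASXL1 (centre) and of the neighbouring gene DNMT3B (right) in 6 ranges of UMIs per barcode, in WT (blue) and KO (red), with exact Poisson 95% intervals. In all ranges the sum and ASXL1 are lower in KO and DNMT3B is higher.

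The share of mitochondrial UMIs was a little higher in KO, with medians of 4.36% in WT cells and 5.10% in KO cells. In cells with at most 5% such UMIs (1747 WT and 1103 KO cells) the log2 ratio of the summed genes was −0.31 (interval −0.46 to −0.17), and in cells from 5% to 10% it was −0.36 (interval −0.51 to −0.22). The difference was thus about as large within each of these strata as over all cells. The stratum from 10% to 20% held 123 WT and 183 KO cells and gave −0.17 with an interval of −0.59 to 0.25. ASXL1 had log2 ratios of −1.58 and −1.0 in the first and second strata and 7 against 1 UMI in the last.

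To compare cells at the same depth, 1000 UMIs were drawn at random from each. At least 1 UMI of the 10 genes was then found in 37.9% of WT cells (exact Clopper-Pearson interval 36.1 to 39.6) and in 30.6% of KO cells (interval 28.7 to 32.6), and before thinning in 49.7% and 41.9%. The variance of the summed genes over cells divided by their mean was 1.05 in both libraries, close to the medians of 1.04 over 479 WT and 1.04 over 457 KO single genes with means of 0.25 to 1 UMI, and the value for UMIs drawn at random is 1. By this measure the 10 genes were spread over cells much as typical genes of that level, in both libraries. ASXL1 was found in 4.60% of thinned WT cells (interval 3.87 to 5.42) and 1.22% of thinned KO cells (interval 0.815 to 1.77), and in 6.20% and 2.54% before thinning. This draw widened its gap between the libraries. It had variance over mean of 1.12 and 0.99 and no more than 3 and 1 UMIs in a cell. The barcodes of 10 to 99 UMIs carry these genes at like levels, no cell type that lacks them was measured, and so the part of free RNA in these shares was not tested.

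The span from the start of HM13 to the end of MAPRE1 holds 33 genes with counts, of which 12 reached 20 CPM in cells. These are 8 of the listed genes and 4 others, ID1, TPX2, NOL4L and DNMT3B, and their median log2 ratio was −0.24 (interval −0.70 to −0.14). Of the 12, 11 lay below 0, against 65.7% of all genes, and 5 (41.7%) were at least 1.2-fold lower in KO, against 29.7%. The 20 measured genes before the span had a median of −0.02 (interval −0.10 to 0.10) and the 20 after it −0.20 (interval −0.35 to 0.03). Chromosome 20 outside the span had −0.10. The genes before the span lie at chr20:17613679-25585531 and those after it at chr20:33358839-36746090. The span thus has no close neighbour of at least 20 CPM on the side before it. The interval of the span's median lies just below that of these distant genes before it and overlaps that of the genes after it. In the shallow barcodes the span's median was −0.32 (interval −0.64 to 0.08) over 13 genes. The medians of the 20 genes before and the 20 after it were −0.10 and −0.08, both within that interval.

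The 4 other genes of the span had unlike ratios. DNMT3B, the de novo DNA methyltransferase that marks primed pluripotent cells, lies between COMMD7 and MAPRE1 and was higher in KO. It had 784 UMIs in WT cells (169 CPM, interval 157 to 181) and 950 in KO cells (266 CPM, interval 250 to 284), a log2 ratio of 0.66 (interval 0.52 to 0.80), and 0.67 in the shallow barcodes. TPX2, a spindle assembly factor that activates Aurora A, was lower in KO at 984 WT and 464 KO UMIs (212 and 130 CPM), with log2 ratios of −0.70 in cells and −0.79 in shallow barcodes. ID1, an inhibitor of basic helix-loop-helix factors and a target of BMP signalling, had 224 and 123 UMIs (48.2 and 34.5 CPM) and log2 ratios of −0.48 and −0.64. NOL4L had 155 and 100 UMIs in cells, and its log2 ratio was −0.25 in cells (interval −0.63 to 0.12) and −0.34 in shallow barcodes. The counting interval of DNMT3B was thus apart from those of its neighbours COMMD7 and MAPRE1. Summed over the 12 genes of the span that reached 20 CPM, the log2 ratio was −0.15 in cells.

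**Figure D4:**
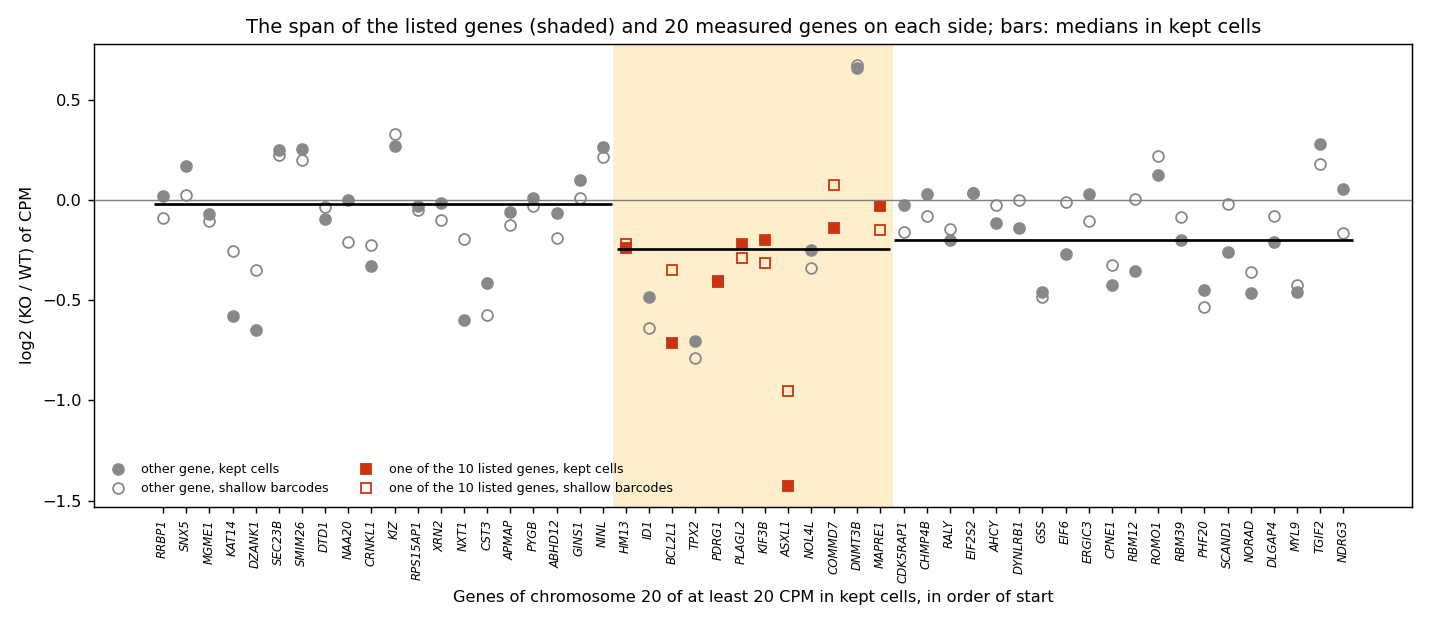
Log2 ratio of KO over WT CPM for genes of chromosome 20 of at least 20 CPM in cells, in order of start: 20 before the span (left), the span (shaded; squares are listed genes) and 20 after it, with cells filled and shallow barcodes open. Bars show medians in cells of −0.02, −0.24 and −0.20, and within the span the values run from ASXL1 at −1.43 to DNMT3B at 0.66. The genes on the left lie at chr20:17613679-25585531 and are not close to the span.

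By chromosome, the median log2 ratio of genes of at least 20 CPM in cells ran from −0.21 on chromosome 21 to −0.06 on chromosome 19, with chromosome 20 at −0.13 (157 genes, interval −0.20 to −0.05), the 9th lowest of 23. In the shallow barcodes chromosome 20 was at −0.12, the 14th lowest. Chromosome 20 as a whole therefore lay among the other chromosomes in both sets. The span's median lay below that of each chromosome in both sets, but it rests on 12 and 13 genes, and its interval overlapped that of chromosome 20 in both.

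**Figure D5:**
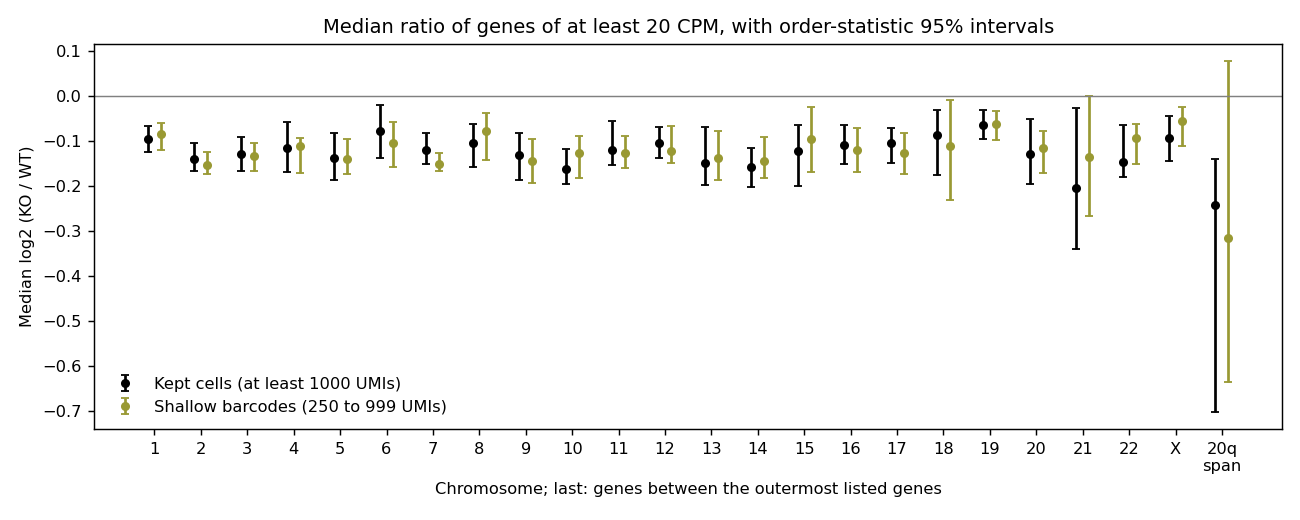
Median log2 ratio of KO over WT CPM of genes of at least 20 CPM on each chromosome and, last, in the span of the listed genes, in kept cells (black) and shallow barcodes (olive), with order-statistic 95% intervals. The span has the lowest points, −0.24 and −0.32, and the widest intervals.

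The partners and relatives of the 10 genes elsewhere in the genome were compared from 11 lists. Of 94 matched genes, 68 had a mean of at least 10 CPM in cells, and their median log2 ratio was −0.09 (interval −0.17 to −0.04), with 17 lower and 8 higher in KO by 1.2-fold or more, where 33.6% of all genes of at least 10 CPM were lower and 11.5% higher. In shallow barcodes 23 of 69 were lower and 6 higher, against 32.4% and 8.98% of all genes. Their median lay near that of all genes. The lists below hold few measured genes each, and their shares of lower genes lie on both sides of the share of all genes. Among pro-survival relatives of BCL2L1, MCL1 was the only one of 5 to reach 10 CPM. It had 428 WT and 267 KO UMIs in cells and a log2 ratio of −0.30 (interval −0.52 to −0.07). In shallow barcodes its log2 ratio was −0.12 (interval −0.22 to −0.02), where the median of all genes of at least 20 CPM was also −0.12. Of 7 measured pro-apoptotic genes, 1 was lower and 2 were higher in KO by 1.2-fold or more. These were BAD, a sensitizer that binds BCL-XL, at −0.54 (interval −1.15 to 0.06), PMAIP1, which encodes NOXA and binds MCL1, at 0.37 (interval 0.19 to 0.55), and BID, which links caspase-8 to mitochondria, at 0.27 (interval −0.03 to 0.57).

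The 5 partners and relatives of ASXL1 that reached 10 CPM, its paralog ASXL2 among them, had ratios above its own. Of these 1 was lower and 1 higher by 1.2-fold or more. FOXK2 had a log2 ratio of −0.52, HCFC1, a cofactor bound by BAP1, 0.58 (interval 0.29 to 0.87), and OGT, which modifies HCFC1, 0.26, which is just under 1.2-fold. In shallow barcodes OGT had 0.53 (interval 0.44 to 0.62), past 1.2-fold, HCFC1 0.63 and FOXK2 −0.47. There 2 of 5 were higher and 1 lower, against 8.98% and 32.4% of all genes. ASXL3, also a paralog of ASXL1 and named after its values were seen, missed the minimum of 10 CPM. It had 36 WT UMIs and 1 KO UMI in cells (log2 ratio −4.79, interval −10.1 to −2.22) and 220 and 14 in shallow barcodes (−3.80). Its WT level alone was under that minimum, at 7.74 CPM in cells and 9.25 CPM in shallow barcodes. KIFAP3 and PLAGL1, named below, had WT levels over it in cells, 11.8 and 18.1 CPM. A minimum on the mean of both libraries left those genes out in cells because their KO level was low. Of 10 measured genes of intramembrane proteases and the signal peptidase, listed for HM13, 3 were at least 1.2-fold lower and 2 higher, and the protease SPPL3 had a log2 ratio of −0.51 (interval −1.05 to 0.01). The kinesin-2 genes KIF3C and KIF3A had 0.24 and −0.06 in cells. In shallow barcodes the 2 measured kinesin-2 genes, KIF3A at −0.33 and KIFAP3 at −0.72, were both at least 1.2-fold lower, against 32.4% of all genes. KIFAP3, named after its values were seen, had 55 WT and 12 KO UMIs in cells (log2 ratio −1.81, interval −2.85 to −0.90), where its mean was under 10 CPM. Of 5 measured genes of O-fucosylation and NOTCH receptors, listed for POFUT1, 4 were at least 1.2-fold lower and 1 higher, and in shallow barcodes 3 of 6 were lower and 1 higher. In cells POFUT2 was at −0.50, the receptor gene NOTCH1 at −0.49 and GMDS, of GDP-fucose synthesis, at 0.63.

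Of 8 measured microtubule plus-end genes, listed for MAPRE1, 4 were at least 1.2-fold lower and 1 higher, with a median of −0.37. In shallow barcodes 7 of 8 were lower and none higher, with a median of −0.38, against the 32.4% lower of all genes. In cells CLIP1, DCTN1 and APC had −0.58, −0.55 and −0.50. MAPRE1, at −0.03, lay above this median. In the Commander complex 2 of 13 measured genes were at least 1.2-fold lower and none higher; COMMD8, COMMD1 and DENND10 had −0.60, −0.42 and −0.21. None of 13 measured prefoldin and R2TP genes passed 1.2-fold in either direction, and URI1, PFDN4 and RPAP3 had the largest values, between −0.22 and −0.21, beside −0.41 for PDRG1. Among the nonaspanins TM9SF1 had 32 WT and 48 KO UMIs and a log2 ratio of 0.97 in cells (interval 0.29 to 1.66) but −0.28 in shallow barcodes, and TM9SF2 and TM9SF3 had −0.05 each in cells. TM9SF4 and TM9SF1 thus had ratios of opposite sign in the 2 sets, TM9SF4 lower in KO cells and TM9SF1 higher. PLAG1, the relative of PLAGL2, had −0.41 (interval −1.0 to 0.16). The other relative listed, PLAGL1, named after its values were seen, had 84 WT and 4 KO UMIs in cells (log2 ratio −4.01, interval −5.92 to −2.60), where its mean was under 10 CPM, and 472 and 44 in shallow barcodes (−3.25), where it was over.

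The genes whose pattern was most like that of the summed 10 were found from log2 CPM over 8 points, the 2 libraries by 4 UMI ranges from 250 UMIs on, each gene centred on its own mean. Of 1578 genes of at least 100 CPM, HDLBP (root mean square difference 0.036), ATXN7L3B (0.038), RARS1 (0.038), H3P6 (0.043), a pseudogene, and TMA16 (0.043) were closest. They lie on chromosomes 2, 12, 5, 2 and 4, and their log2 ratios in cells ran from −0.37 for TMA16 to −0.27 for H3P6. The points share libraries, so the likeness is a description.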

How the data were processed

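Polyadenylated RNA of single H1 cells was captured on barcoded beads in microwells and its complementary DNA fragmented with Tn5, per the labels' protocols. The files deposited by the authors hold whole, unnormalized UMI counts for genes and barcodes, 60578040 in 842407 WT barcodes and 54559376 in 841049 KO barcodes. Per the submitters' processing notes the tools were featureCounts 2.0.1, Subread, STAR 2.7.10a and UMI-tools 1.1.2 and the build hg38, without role or order. Annotation, counting strand and barcode filter were not given in the sources used here. The KO table holds 15 entries more than its size line states, with no repeated gene and barcode pair, and all were used.

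Counts were summed per library over kept cells or shallow barcodes and scaled to CPM of those sums. Levels have exact Poisson intervals, ratios exact conditional binomial intervals, and medians order-statistic intervals. Differences in log2 ratio between cells and shallow barcodes have approximate intervals, from a normal error on the log scale. Of the 33592 symbols, 31703 matched the RefSeq table (GRCh38.p14) by symbol, 321 by synonym and 1568 not at all. Genes named are the 10, all genes of the span of at least 20 CPM, up to 3 per relative list with the largest ratios at 10 CPM, and the 5 most alike; some results of the list for HM13 are not reported here. The 10 genes and the lists were chosen with earlier results of these data known. On simulated counts for the kept-cell comparison the ratio intervals held the true value for 94% of 50 genes at 0.5-fold, 92% at 0.8-fold, 100% at 1.25-fold, 96% at 2-fold and 95.4% of 5700 unchanged genes. These counts had Poisson error alone, so they check the computation and not the spread between cells, clones or libraries. Alternatives changed the cell filters, scaling, depth and genes used. Python 3.11.15, NumPy 2.4.6, SciPy 1.17.1, pandas 2.3.3 and Matplotlib 3.10.9 were used.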

Additional observations from a re-analysis of the deposited data

How the results depend on the processing

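The summed log2 ratio of the 10 genes was below 0 in each of 26 alternatives in cells (−0.41 to −0.17) and 15 in shallow barcodes (−0.28 to −0.13). It moved past its counting interval in cells when taken relative to the median of all genes (−0.20) and in cells of 10% to 20% mitochondrial UMIs (−0.17), and in shallow barcodes when taken relative to that median (−0.13), scaled without mitochondrial and ribosomal protein genes (−0.19) or summed without ASXL1 (−0.20). With each gene left out in turn it ran from −0.41 to −0.25 in cells and from −0.28 to −0.20 in shallow barcodes, and the median of the genes from −0.41 to −0.24. The median over the 10 genes stayed between −0.41 and −0.21 in 19 alternatives. The median of the span, −0.24, became −0.13 relative to all genes and −0.13 at a minimum of 50 CPM. The number of genes lower in KO was 3 at 1.5-fold and 3 to 6 over 10 alternatives, and none was at least 1.2-fold higher in any of these 10. Barcodes of 500 to 999 UMIs taken alone were not among these alternatives. There TM9SF4 was past 1.2-fold higher, at a log2 ratio of 0.29. TM9SF4 became 0.09 at a minimum of 500 UMIs and 0.17 over all barcodes of at least 100 UMIs. ASXL1 became −2.01 in one random thinning of the cells and −1.48 when every cell was weighted equally, the expectation over such draws. PLAGL2, COMMD7 and MAPRE1, with intervals that hold 0 in cells, also crossed 0 in 1 or 2 alternatives each. The cause of these shifts was not tested. The UMI ranges under 250, the mitochondrial strata, the barcodes kept in both libraries, the equal weighting, the span without DNMT3B and the count of lower genes were chosen after seeing the data. POFUT1, with 22 UMIs in KO cells, is limited most by depth. No paired analysis was possible because each genotype has 1 library.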
